A study of Saccharomyces cerevisiae with 8 samples.

Results

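The comparison described here sets ρ0 yeast cells overexpressing Pde2p against ρ0 cells overexpressing Tip41p, across all genes. Its members were defined by sample label, with earlier results of these data known. They are the 2 RNA-seq libraries of ρ0 cells with the 2µ-URA3-PDE2 plasmid and the 2 libraries of ρ0 cells with the 2µ-URA3-TIP41 plasmid, 4 of the 8 libraries in the series. The other 4 libraries, 2 of ρ0 cells and 2 of ρ+ cells with the empty 2µ-URA3 vector pRS426, entered the fit to estimate the spread. Their levels are given beside some of the results. All 8 cultures were of BY4743, a MATa/MATα diploid homozygous for his3Δ1, leu2Δ0 and ura3Δ0 and heterozygous at MET15 and LYS2, grown in medium lacking uracil. Ethidium bromide (EtBr), a dye that forces loss of mtDNA, was given to all 6 ρ0 cultures at 25 µg/ml over 24 h, and to neither ρ+ culture. Both genes were expressed from high-copy plasmids, so a level can differ through the number of plasmid copies as well as through transcription. The labels number the replicates 0 and 1 in each group, and the study states that different experimenters performed them. P-values here measure the spread between these cultures. Those given without a block for replicate number count any difference between experimenters as part of that spread.

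Pde2p is the high-affinity phosphodiesterase that breaks down cAMP. In yeast, glucose sensed through Gpr1p and Gpa2p, and Ras proteins acting on adenylate cyclase, raise cAMP, which frees the catalytic subunits of protein kinase A (PKA) from the inhibitory subunit Bcy1p. Active PKA favours growth and holds down the stress transcription factors Msn2p and Msn4p. Tip41p binds Tap42p, a regulator of PP2A-type phosphatases that acts downstream of the TORC1 kinase, which promotes growth when nitrogen is plentiful. The comparison asks which transcripts tell apart ρ0 cells with more of a PKA-lowering enzyme from ρ0 cells with more of a TORC1-branch regulator.

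Fragments assigned to genes numbered 1796286 and 3053408 in PDE2 replicates 0 and 1, 3000914 and 1945961 in TIP41 replicates, and between 1389579 and 4884282 in the 4 vector libraries. Levels are given in CPM, the TMM-scaled share of a library's fragments. They are not divided by gene length, so they are compared between libraries and not between genes. Of 16 haploid-specific and mating genes matched, MFA1 and MFA2, which encode a-factor, had fewer than 3 fragments in every library. The 16 genes summed to 258.7 and 266.4 CPM with PDE2, 287.0 and 258.8 CPM with TIP41, and 192.8 to 333.1 CPM in the vector libraries. Of the 2 deleted marker genes matched, LEU2 had 0 fragments in all libraries, whereas HIS3, of which the his3Δ1 allele keeps a part, had 79.9 and 69.3 CPM with PDE2, 62 and 57.2 CPM with TIP41, and 69.5 to 86.2 CPM in the vector libraries. HIS3 thus gave no check of the genotype, and it shares its deposited locus with another gene model. Genes encoded by mtDNA had 0 fragments in all ρ0 libraries, but only 9 and 6 in the ρ+ libraries, so poly(A)-selected RNA gave no check of mtDNA loss.

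The PDE2 insert could be placed exactly, and its ends are shown because they decide which transcripts the plasmid can raise directly. The gene-matching parts of the 2 cloning primers are, 5′ to 3′:
PDE2 left primer (chrXV:1012761-1012790, R64, plus strand): atctggcataataaagttgattgtcttgac
PDE2 right primer (chrXV:1015335-1015360, R64, minus strand): atttcatgaacttacgggcttgtatg
Each matched the R64 genome at 1 place. They bound an insert of 2600 bases, chrXV:1012761-1015360, which holds PDE2 (YOR360C, chrXV:1013241-1014821, minus strand, 1581 bases) and no other gene. It begins at the base after VTS1 and ends at the base before PRT1. The insert of the TIP41 plasmid is not given in the sources used here.

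Both plasmids raised the gene they carry. PDE2 had 581.3 and 638.5 CPM in the PDE2 libraries, against 160.3 and 113.8 CPM in the TIP41 libraries and 183.7 and 152.9 CPM in ρ0 vector libraries. PDE2 libraries were thus apart from all others, and PDE2 was 4.43-fold higher than with TIP41 (log2 fold change 2.15, SE 0.17, edgeR quasi-likelihood adjusted p = 8.26e-06). TIP41 (YPR040W, chromosome XVI) had 67.5 and 52.1 CPM with PDE2, against 759.4 and 600.3 CPM with TIP41, and 51.5 and 60.9 CPM with the vector. Its log2 fold change of −3.52 (SE 0.19, adjusted p = 2.04e-07) corresponded to an 11.5-fold higher level in TIP41 libraries. The plasmid gene thus rose further over the vector with TIP41 (log2 fold change 3.60) than with PDE2 (1.86), 2 values that share the ρ0 vector libraries and whose difference was not tested.

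Transcripts from around TIP41 differed too, whereas those around PDE2 did not pass the threshold. IRC16 (YPR038W, chrXVI:646836-647195), a gene model that overlaps ERV2, had 15.4 and 14.5 CPM with PDE2, against 99.6 and 156.4 CPM with TIP41 and 12.2 and 10.5 CPM with the ρ0 vector (log2 fold change −3.09, SE 0.24, adjusted p = 1.22e-05). YPR039W, which the deposited table places at the same locus, had 0 and 4 fragments with PDE2, against 57 and 42 fragments with TIP41 (adjusted p = 0.00246). Its fitted log2 fold change of −4.50 depends on the prior count added to so few fragments. ERV2, a sulfhydryl oxidase of the endoplasmic reticulum, had 55.0 and 44.3 CPM with PDE2, against 88.1 and 84.2 CPM with TIP41. It did not pass without a block for replicate number (log2 fold change −0.81, adjusted p = 0.0675) and passed with it (adjusted p = 0.00511). All 4 genes share 1 deposited locus, chrXVI:646448-648375, between whose gene models the authors' software divided fragments, so how much of the signal belongs to each is uncertain. The next genes on either side, GLN1, VMA13 and SPO24 to the left and TIF5, PUF2 and RPL43A to the right, had log2 fold changes of −0.25 to 0.32 and did not pass. Around PDE2, the genes SNX3, HAP5 and VTS1 to the left and PRT1, PRE10 and PIP2 to the right had values of −0.20 to 0.12 and adjusted p-values of at least 0.877.

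**Figure D1:**
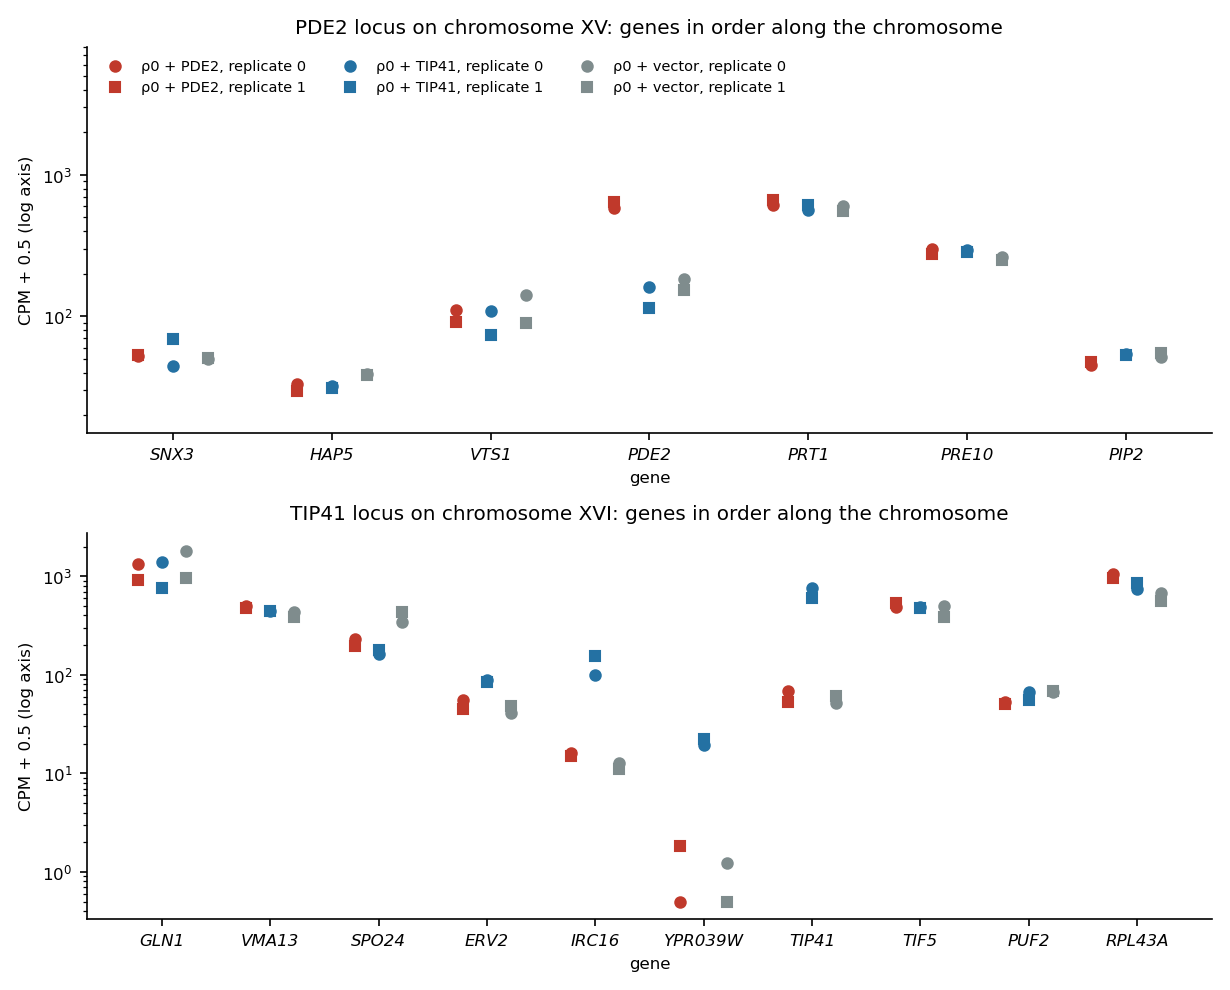
Levels in CPM (plus 0.5, log axis) of the genes around PDE2 (top) and TIP41 (bottom) in each ρ0 library, in chromosomal order, with PDE2 libraries left, TIP41 libraries in the middle and vector libraries right at each gene, and circles and squares for replicates 0 and 1. Only PDE2 stands out at the upper locus (581.3 and 638.5 CPM with PDE2), while IRC16, YPR039W and TIP41 stand out together with the TIP41 plasmid.

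URA3, which encodes orotidine-5′-phosphate decarboxylase and is the marker of both plasmids, can be read only from the plasmids in this strain. It had 1914.9 and 2699.5 CPM with PDE2, against 5657.8 and 7210.7 CPM with TIP41, while the empty vector gave 16950.3 and 15617.3 CPM in ρ0 cells. The 3 plasmids did not overlap. URA3 was 2.79-fold lower with PDE2 than with TIP41 (log2 fold change −1.48, SE 0.20, adjusted p = 0.00187). Without PDE2 replicate 0 the value was −1.24 and did not pass (adjusted p = 0.096; adjusted p over 20 alternatives was at most 0.211). The part of this plasmid marker difference in other genes' values was not tested.

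Beyond the plasmid genes, few transcripts passed the threshold between the 2 overexpressions. The main fit did not use the replicate number. Of 5832 genes tested in it, 7 were higher with PDE2 (0.12%) and 16 were lower (0.274%) at an adjusted p under 0.05. Among these 23 genes the smallest absolute log2 fold change was 0.66, and in all 23 the PDE2 libraries did not overlap the TIP41 libraries, as in 18.1% (wholly higher) and 19.7% (wholly lower) of all genes. At an unadjusted p under 0.05, 153 genes had a higher and 231 a lower level with PDE2. With the replicate number as a block, 16 genes were higher (0.274%) and 38 lower (0.652%), and all 23 genes called without the block were among them. The median log2 fold change over all genes was −0.01, and 49% of genes had a positive and 51% a negative value. Most of the 23 calls were close to the limit of this design. With each of the 8 libraries left out in turn, 6 genes passed every time (PDE2, TIP41, IRC16, YPR039W, MCH5 and SRL3) and the other 17 lost their call at least once. Without PDE2 replicates 0 and 1, 15 and 14 of the 23 lost it, without TIP41 replicates 0 and 1, 13 and 14, and without either ρ+ library 13, whereas none was lost without a ρ0 vector library. URA3 was lost only without PDE2 replicate 0, YPS3 only without PDE2 replicate 1 (adjusted p = 0.0646), and IMD2 without PDE2 replicate 1 or TIP41 replicate 0 (adjusted p at most 0.0584). YPK2 ranged from −1.12 to −0.65 over these fits, and the highest adjusted p of any call was 0.498, for GDE1. All 23 kept their direction.

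For comparison, the same fit called 76 genes higher and 58 lower with PDE2 than with the ρ0 vector, and 8 higher and 16 lower with TIP41 than with the ρ0 vector.

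**Figure D2:**
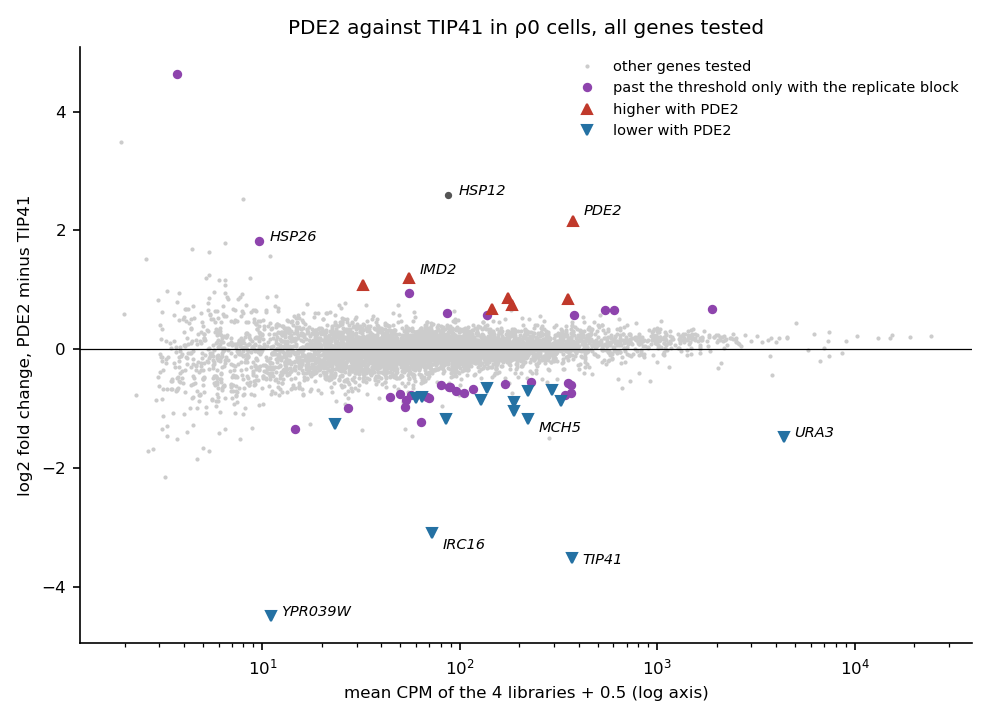
Log2 fold change of PDE2 minus TIP41 against the mean level of the 4 libraries (CPM plus 0.5, log axis) for 5832 genes, with red triangles for the 7 genes higher with PDE2, blue triangles for the 16 lower, and purple points for genes past the threshold only with the replicate block. HSP12, at 2.60, lies far from 0 but did not pass in either fit, and its replicates differed widely.

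The genes that rose with PDE2 relative to TIP41, apart from PDE2 itself, encode enzymes of nucleotide and flavin synthesis, a histone and transporters. IMD2, an IMP dehydrogenase that catalyses the rate-limiting step of GTP synthesis, had 71.0 and 80.5 CPM with PDE2, against 32.0 and 34.8 CPM with TIP41 and 39.3 and 45.6 CPM with the ρ0 vector. It was 2.29-fold higher (log2 fold change 1.19, SE 0.16, adjusted p = 0.00187). The related gene IMD3 had a value of 0.25 and did not pass (adjusted p = 0.837). Because the IMD genes are close in sequence, the division of fragments among them by the authors' software is a source of uncertainty.

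RIB4, lumazine synthase of the riboflavin pathway, had 256.3 and 194.4 CPM with PDE2, against 116.1 and 131.5 CPM with TIP41 and 85.0 and 88.4 CPM with the ρ0 vector (log2 fold change 0.86, SE 0.15, adjusted p = 0.0239). In contrast MCH5, the plasma membrane riboflavin transporter, was lower with PDE2, at 126.7 and 145.0 CPM, against 324.6 and 292.1 CPM with TIP41 and 275.5 and 270.7 CPM with the vector (−1.18, SE 0.14, adjusted p = 0.000551). So a synthesis gene and the transporter gene for the same vitamin differed in opposite directions. The ρ+ libraries had 228.0 and 272.1 CPM for RIB4 and 131.9 and 117.8 CPM for MCH5. For both genes these levels lay nearer to those with PDE2 than to those with TIP41. A list of 10 genes of riboflavin and flavin cofactor synthesis, put together after these values were seen, had no other member past the threshold, and its median was −0.03. In it, FMN1, which makes FMN from riboflavin, had a value of −0.71 (adjusted p = 0.559).

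HTA2, which encodes histone H2A, had 514.4 and 393.1 CPM with PDE2, against 246.4 and 260.4 CPM with TIP41 and 229.8 and 267.1 CPM with the ρ0 vector (log2 fold change 0.84, SE 0.16, adjusted p = 0.0283). AGP1, a broad-specificity amino acid permease, had 162.8 and 193.7 CPM with PDE2, against 107.5 and 115.9 CPM with TIP41 and 139.7 and 132.3 CPM with the vector (0.68, SE 0.13, adjusted p = 0.0369). For AGP1 the vector level lay between the 2 overexpressions, for HTA2 the TIP41 libraries overlapped the vector libraries, and for RIB4 the libraries of both overexpressions lay above the vector libraries. DIC1, the mitochondrial dicarboxylate carrier, had 231.4 and 224.8 CPM with PDE2, against 134.6 and 139.3 CPM with TIP41 (0.74, SE 0.13, adjusted p = 0.0275). In the ρ+ libraries HTA2 had 298.2 and 282.6 CPM, AGP1 159.5 and 166.2 CPM, and DIC1 80.2 and 89.8 CPM. DIC1 shares its deposited locus with the gene model YLR349W. The remaining call, YLR198C, with 42.6 and 43.3 CPM against 20.8 and 19.8 CPM with TIP41 (1.08, adjusted p = 0.0421), lies at 1 locus with NOP56, a ribosome biogenesis gene whose own value was 0.36 (adjusted p = 0.758).

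Among the 16 genes lower with PDE2, 12 lay away from the TIP41 locus and the plasmid marker, and several of these encode proteins of the cell wall or kinases. SRL3, a cell cycle gene related to the G1 inhibitor WHI5, had 55.0 and 49.7 CPM with PDE2, against 126.7 and 107.1 CPM with TIP41 and 99.0 and 100.9 CPM with the ρ0 vector, a 2.25-fold difference (log2 fold change −1.17, SE 0.14, adjusted p = 0.000963). YPS3, an aspartic protease of the yapsin family anchored at the cell surface, had 124.9 and 120.7 CPM with PDE2, against 245.4 and 260.9 CPM with TIP41 (−1.04, SE 0.14, adjusted p = 0.00219). YLR194C, a cell wall protein, had 215.5 and 245.1 CPM with PDE2, against 415.7 and 428.3 CPM with TIP41 (−0.87, SE 0.16, adjusted p = 0.0239). In each of these 3 genes the PDE2 libraries lay below every other ρ0 library, TIP41 and vector alike. The ρ+ libraries had 27.5 and 28 CPM for SRL3, 113.4 and 87.7 CPM for YPS3, and 315.2 and 264.4 CPM for YLR194C.

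CHS1, the chitin synthase that repairs the septum, had 225.5 and 219.7 CPM with PDE2, against 354.0 and 365.9 CPM with TIP41 and 460.3 and 427.7 CPM with the vector (log2 fold change −0.69, SE 0.13, adjusted p = 0.0369). GPI18, a mannosyltransferase of the GPI anchor pathway that serves many wall proteins, had 114.2 and 98.0 CPM with PDE2, against 167.9 and 165.8 CPM with TIP41 (−0.66, SE 0.13, adjusted p = 0.0409). Among the ρ0 libraries both genes were again lowest with PDE2, with TIP41 between PDE2 and the vector. The ρ+ libraries were near the PDE2 level, with 226.4 and 241.2 CPM for CHS1 and 98.4 and 106.6 CPM for GPI18. The kinase genes CMK2 and YPK2 also passed. CMK2, a calmodulin-dependent kinase, had 166.9 and 167.3 CPM with PDE2, against 256.0 and 288.5 CPM with TIP41 and 364.1 and 355.1 CPM with the vector (−0.70, SE 0.13, adjusted p = 0.0283). YPK2, a kinase downstream of TORC2, had 129.0 and 131.5 CPM with PDE2, against 206.2 and 282.8 CPM with TIP41 and 176.8 and 205.8 CPM with the vector (−0.90, SE 0.16, adjusted p = 0.0208). In the ρ+ libraries CMK2 had 113.0 and 114.3 CPM, and YPK2 had 72.4 and 64.5 CPM.

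Of the remaining genes lower with PDE2 than with TIP41, FAT3, needed for fatty acid uptake, had 13.6 and 13.2 CPM with PDE2, against 34.0 and 30.1 CPM with TIP41 and 19.8 and 16.9 CPM with the ρ0 vector (log2 fold change −1.27, SE 0.23, adjusted p = 0.0239). GDE1, which hydrolyses glycerophosphocholine, had 44.4 and 48.7 CPM with PDE2, against 87.4 and 74.8 CPM with TIP41 (−0.80, SE 0.16, adjusted p = 0.0472). YGR149W, the acyltransferase GPC1 that uses the same molecule, had 40.3 and 45.0 CPM with PDE2, against 70.9 and 81.1 CPM with TIP41 and 46.1 and 52.9 CPM with the vector (−0.82, SE 0.16, adjusted p = 0.0346). For FAT3 and YGR149W the ρ0 vector levels lay nearer to those with PDE2 than to those with TIP41. DIA1, of unknown function, had 91.2 and 91.3 CPM with PDE2, against 151.4 and 178.3 CPM with TIP41 (−0.85, SE 0.13, adjusted p = 0.00624), and shares a locus with another gene model, as YPS3 does. In the ρ+ libraries FAT3 had 25.2 and 30.2 CPM, GDE1 58.4 and 58.9, YGR149W 47.4 and 47.7, and DIA1 60.5 and 63.1 CPM.

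Set beside the ρ0 vector, both PDE2 libraries lay below both vector libraries for 13 of the 16 genes lower with PDE2, and both TIP41 libraries lay above both vector libraries for 8. Of the 7 genes higher with PDE2, both PDE2 libraries lay above both vector libraries for 7, and both TIP41 libraries lay below them for 3. Among the 16, the lowest value of PDE2 against the vector after that of URA3 was at CMK2 (−1.11 against the vector, adjusted p = 0.000547), where TIP41 had −0.40 (adjusted p = 0.296). For YPS3 the values were −1.06 for PDE2 (adjusted p = 0.00139) and −0.01 for TIP41 (adjusted p = 0.987). These 2 contrasts share the ρ0 vector libraries.

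**Figure D3:**
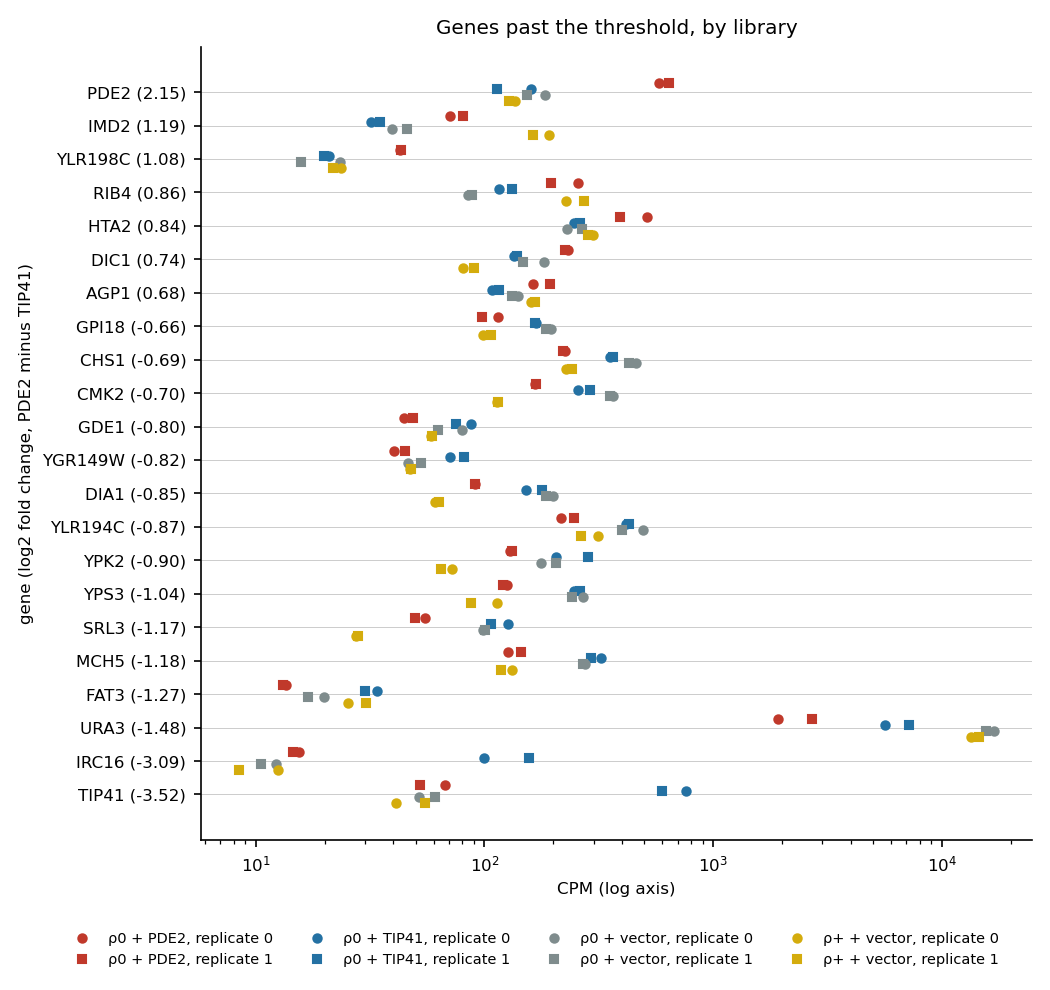
Levels (CPM, log axis) in all 8 libraries of 22 of the 23 genes past the threshold (YPR039W, with 0 fragments in some libraries, is left out), ordered by log2 fold change, with PDE2 libraries drawn above TIP41, ρ0 vector and ρ+ vector libraries in each row and circles and squares for replicates 0 and 1. The red and blue points do not overlap in any row, and URA3 is the gene with the widest gap between both plasmids and the empty vector.

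The cell wall genes were looked at as a group. The cell wall integrity pathway runs from the sensors Wsc1p and Mid2p through Rho1p and Pkc1p to the MAP kinase Slt2p, which activates the transcription factor Rlm1p. A list of 37 pathway components and Rlm1p-dependent genes tested was chosen after the values above were seen. None of the 37 was higher and 4 were lower (SRL3, YPS3, YLR194C and CHS1), and with the replicate block 7 were lower. Over all genes 0.274% were lower without the block and 0.652% with it. In 20 of the 37 the PDE2 libraries lay wholly below the TIP41 libraries, and in none wholly above, where over all genes 19.7% lay below and 18.1% above. The median log2 fold change was −0.27, against −0.01 for all genes. Since the list was drawn up with these values in view, these counts are a description.

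The 3 genes added by the replicate block were PRM5, SLT2 and PTP2. PRM5, a membrane protein gene induced by wall stress, had 30.8 and 42.6 CPM with PDE2, against 72.2 and 106.0 CPM with TIP41 and 70.6 and 105.3 CPM with the ρ0 vector. Replicate 1 was higher in each of these groups, and the log2 ratios within replicates 0 and 1 were −1.22 and −1.31 (0.5 CPM added). PRM5 had an adjusted p of 0.176 without and 3.83e-06 with the block. SLT2, the MAP kinase itself, had 294.2 and 254.5 CPM with PDE2, against 516.6 and 394.0 CPM with TIP41 (−0.74, adjusted p = 0.106, and 0.00355 with the block). PTP2, the phosphatase that acts on Slt2p, had 72.2 and 65.9 CPM with PDE2, against 104.6 and 109.7 CPM with TIP41 (−0.64, adjusted p = 0.106, and 0.0209 with the block). The sensor gene MID2 had −0.41, the yapsin gene YPS1 −0.48 and RLM1 −0.40, and none of the 3 passed in either fit.

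Calcium signalling genes were viewed likewise, in a list of 19 chosen after the values were seen. CMK2 was the single member past the threshold, and with the block RCN2 was added (0.274% and 0.652% of all genes were lower in these fits). RCN2, a regulator of calcineurin, had 63.9 and 62.2 CPM with PDE2, against 90.1 and 102.4 CPM with TIP41 (−0.61, adjusted p = 0.106, and 0.0305 with the block). The list's median was −0.09.

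**Figure D4:**
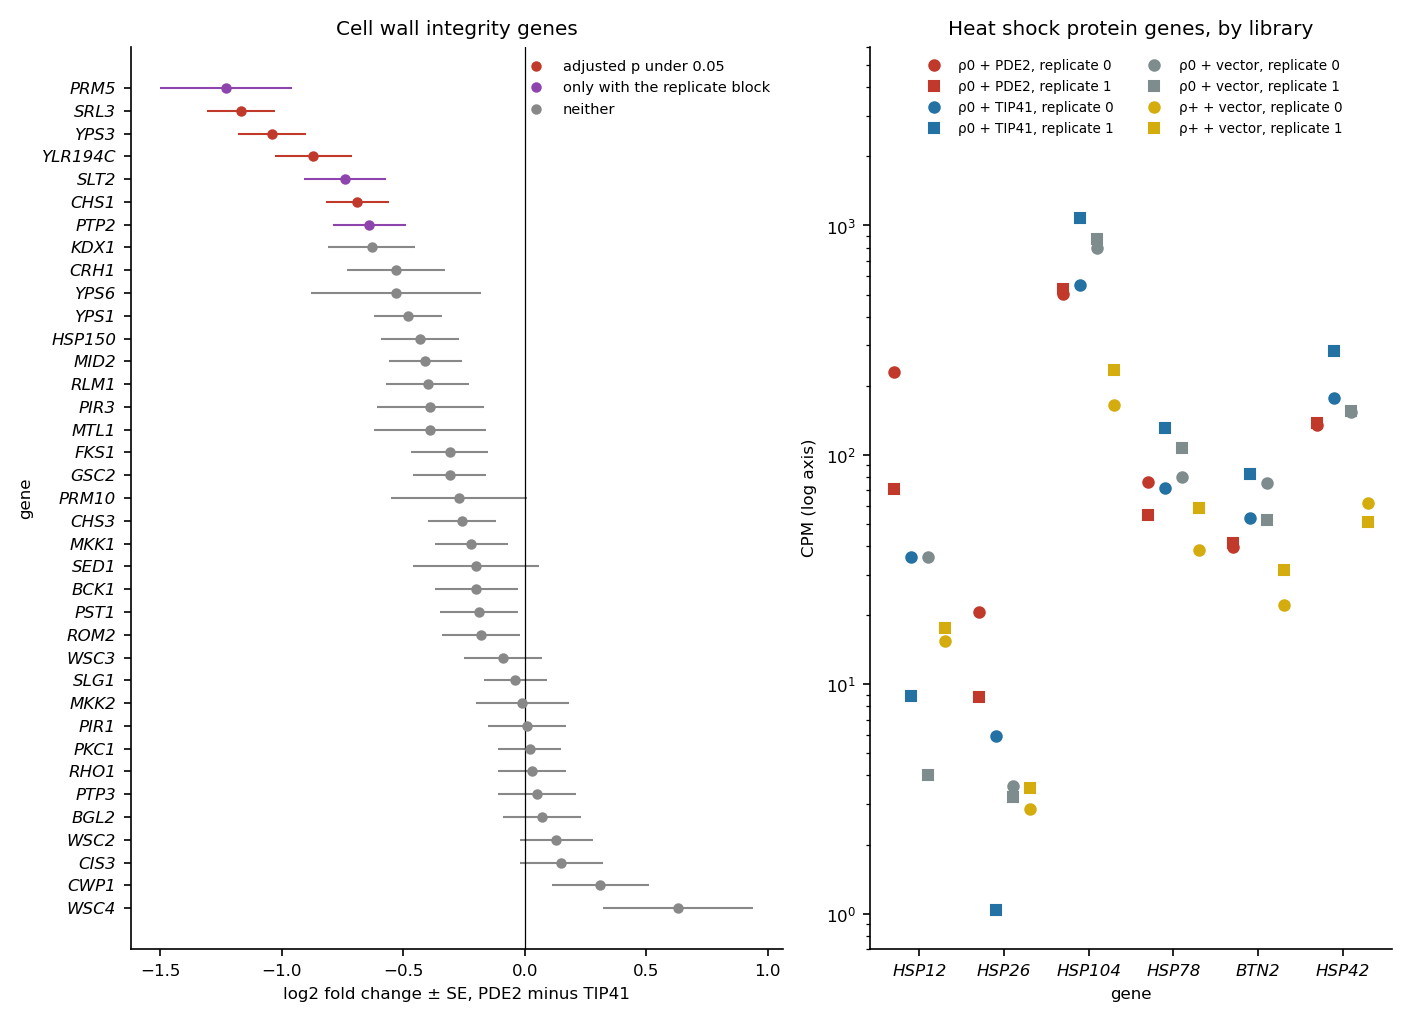
Left, log2 fold change ± SE of PDE2 minus TIP41 for 37 cell wall integrity genes, coloured by whether they passed the threshold, passed it only with the replicate block, or neither. Right, levels (CPM, log axis) of 6 heat shock protein genes in the 8 libraries, with PDE2, TIP41, ρ0 vector and ρ+ vector from left to right. HSP12 and HSP26 are highest in the PDE2 libraries, with replicate 0 above replicate 1 in both ρ0 overexpressions.

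HSP12 and HSP26, small heat shock protein genes repressed through PKA, had the largest values among the stress genes, but with wide replicate spread. HSP12 had 229.7 and 71.0 CPM with PDE2, against 36.0 and 8.84 CPM with TIP41, 35.7 and 4.03 CPM with the ρ0 vector and 15.4 and 17.5 CPM with the ρ+ vector. The PDE2 and TIP41 libraries did not overlap, and the log2 ratios within replicates 0 and 1 were 2.66 and 2.94. Even so, its log2 fold change of 2.60 had an SE of 1.12 and an adjusted p of 0.758, and with the replicate block the adjusted p was 0.333. The lowest adjusted p over 20 alternatives was that 0.333, and leaving out 1 library moved the HSP12 value between 1.58 and 4.04.

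HSP26 had 20.7 and 8.79 CPM with PDE2, against 5.94 and 1.04 CPM with TIP41 and 3.60 and 3.23 CPM with the ρ0 vector, or 35 and 26 fragments against 18 and 2. Its log2 fold change was 1.82 (SE 0.57, adjusted p = 0.405). With the replicate block HSP26 passed the threshold (1.95, adjusted p = 0.0185). The block thus turned the call for HSP26 and not for HSP12.

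Msn2p and Msn4p bind stress response elements, whose core is AGGGG. HSP12 has at least 2 of them, on the opposite strand, in the 300 bases before its start codon, shown with the core in capitals:
HSP12 site 227 bases from the start codon (chrVI:107014-107038, R64, plus strand): agatctacagCCCCTggaaaatcgt
HSP12 site 185 bases from the start codon (chrVI:107056-107080, R64, plus strand): tccggtcgtcCCCCTcttgatctga
Leaving out 10 bases at each end of this window, where sites were not listed, no AGGGG was found on either strand before HSP26. Over all 6001 promoters with a full window, 22.2% hold the core. So do 1 of 6 promoters of genes higher with PDE2 and 2 of 15 of genes lower. With the replicate block the counts are 2 of 14 for genes higher and 10 of 36 for genes lower. These sets include the plasmid genes PDE2, TIP41 and URA3. The binding sequence of Rlm1p stands in 1.2% of all promoters, in none of the 15 and in 2 of the 36. A match is a description of the sequence and not of binding.

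The wider stress lists had no member past the threshold without the replicate block, and their medians ran from −0.24 to 0.06. Of 44 Msn2p/Msn4p-dependent genes tested, none passed, and 1, HSP26, was higher with the replicate block. The median was −0.13, with 6 members wholly higher and 6 wholly lower in the PDE2 libraries (18.1% and 19.7% of all genes), and HSP42 had a value of −0.74 (adjusted p = 0.221). Trehalose and glycogen genes had 23 negative values among 27 tested (51% of all genes), none past the threshold, and a median of −0.24. NTH1, neutral trehalase, had −0.40 and PGM2, phosphoglucomutase, −0.38. Among the 8 Hsf1p targets that the study singled out, none passed and the median was −0.20. That list was picked in the study on these samples and is not independent evidence of a direction. HSP104, the disaggregase, had 501.4 and 530.7 CPM with PDE2, against 547.6 and 1073.8 CPM with TIP41 (−0.65, adjusted p = 0.758), with TIP41 replicate 1 apart from the other 3 libraries of this comparison. The ρ0 vector libraries had 797.0 and 869.1 CPM, above both PDE2 libraries and between the 2 TIP41 libraries, and the ρ+ libraries 164.7 and 234.9 CPM. BTN2 had −0.72, HSP78 −0.64, SIS1 −0.20, and the HSP70 genes SSA1 to SSA4 lay between −0.21 and 0.25, without a call. Of 16 further Hsf1p chaperone genes none passed, and the median was −0.03. Oxidative stress defence genes (31 tested, median 0.06) gave no call in either fit.

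The transcripts of the 2 signalling pathways themselves showed no difference past the threshold except in the overexpressed genes. Of 27 genes of the Ras, cAMP and PKA pathway tested, PDE2 was the single call in either fit, and the other 26 had values of −0.62 to 0.22. The lowest was TPK2, a catalytic subunit of PKA, with 37.9 and 34.1 CPM with PDE2, against 47.8 and 63.4 CPM with TIP41 (adjusted p = 0.332). TPK3, which also encodes a catalytic subunit, had 0.22. BCY1, the regulatory subunit, had −0.13, PDE1, the low-affinity phosphodiesterase, −0.15, CYR1, adenylate cyclase, −0.24, RAS1 0.14 and RAS2 −0.10. The transcription factor genes MSN2 and MSN4 had 0.06 and −0.10.

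Of 38 TORC1 and Tap42p branch genes tested, TIP41 was likewise the single call in either fit. The list had 27 negative values (51% of all genes) and a median of −0.11. In the PDE2 libraries 14 members were wholly lower (19.7% of all genes) and 3 wholly higher (18.1% of all genes). Apart from TIP41 the values ran from −0.62 (SDS24) to 0.48. That highest value was GAT1, a nitrogen-responsive GATA factor (adjusted p = 0.532), while GLN3, its partner factor, had −0.25. The partner gene TAP42 had −0.14, and the phosphatase genes SIT4, PPH21 and PPH22 had −0.02, −0.19 and 0.14. NPR2, of the complex that restrains TORC1, had −0.55 (adjusted p = 0.56).

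Histone gene values were positive throughout. All 10 histone genes tested had positive values, with 7 wholly higher in the PDE2 libraries and a median of 0.42, and HTA2 passed. Over all genes 49% were positive and 18.1% wholly higher. With the replicate block HHT1 and HHF1, which encode histones H3 and H4, passed as well. HHT1 had 832.3 and 648.0 CPM with PDE2, against 499.5 and 445.4 CPM with TIP41 (0.65, adjusted p = 0.148, and 0.0218 with the block). HHF1 had 771.3 and 563.8 CPM with PDE2, against 454.6 and 390.3 CPM with TIP41 (0.66, adjusted p = 0.187, and 0.0209 with the block). HTA1, the paralog of HTA2, had 0.32 (adjusted p = 0.768), and fragments shared between such copies were divided by the authors' software.

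Cytosolic ribosomal protein genes had small positive values: 39 of 40 were above 0 (49% of all genes) and 34 were wholly higher in the PDE2 libraries (18.1% of all genes), yet none passed in either fit. The median was 0.20 and the largest values were those of RPP2B (0.34) and RPP1A (0.33). Short genes had higher values in general, with a Spearman correlation of −0.23 between log2 fold change and gene length over 5487 coding genes, which share the 4 libraries. With an offset for gene length the ribosomal protein median was 0.14 and the histone median 0.35. The part of gene length in these values was not tested. Ribosome biogenesis factors, at a median of 0.04, stayed near the median of all genes.

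Of the cell cycle lists, the 18 G2 and M phase genes had a median of 0.26, 14 positive values (49% of all genes) and 10 members wholly higher in the PDE2 libraries (18.1% of all genes), with no call in either fit. CLB1, a mitotic cyclin, had 119.0 and 108.5 CPM with PDE2, against 70.3 and 75.4 CPM with TIP41 (0.64, adjusted p = 0.572). SWI5, a transcription factor of late mitosis, had 0.45 and MYO1, the myosin of the bud neck, 0.34. G1 and S phase genes (31 tested, median −0.04) and daughter cell genes of Ace2p (11 tested, median −0.09) gave no call.

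Among nutrient genes, the amino acid permease AGP1 was the single call, and the permease GAP1 and the sulfur gene MET17 passed only with the block. Of 37 genes under nitrogen catabolite repression tested, AGP1 alone passed, and the median was 0.06. GAP1, the general amino acid permease, had 49.1 and 93.0 CPM with PDE2, against 28 and 49.4 CPM with TIP41 (log2 fold change 0.95, adjusted p = 0.669, and 0.0125 with the block). Replicate 1 was again the higher one in both groups. Of 43 Gcn4p-dependent amino acid biosynthesis genes none passed, 17 were wholly higher in the PDE2 libraries (18.1% of all genes) and the median was 0.10, with LYS9 at 0.49 and HOM6 at 0.39.

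The arginine genes that the study followed did not differ between PDE2 and TIP41 beyond their spread. ARG1 had 38.5 and 50 CPM with PDE2, against 46.2 and 94.6 CPM with TIP41 (log2 fold change −0.61, SE 0.97, adjusted p = 0.956), while the ρ0 vector libraries had 88.6 and 411.9 CPM. ARG3 had 0.00 and CPA1 −0.30, and none of 9 arginine genes passed. The aromatic amino acid breakdown genes ARO9 and ARO10 had −0.90 (SE 0.79) and −1.46 (SE 0.73) without a call. ARO10 had 37.3 and 26.0 CPM with PDE2, against 123.1 and 41.6 CPM with TIP41, so TIP41 replicate 0 stood apart. The ρ0 vector libraries had 21.6 and 19.4 CPM for ARO10 and the ρ+ libraries 158.5 and 325.4 CPM. Both TIP41 libraries thus lay above every PDE2 and ρ0 vector library. The methionine and sulfur list (32 tested) had 23 negative values (51% of all genes) and a median of −0.11. In it MET17, the O-acetylhomoserine sulfhydrylase also known as MET15 and present as 1 copy in this strain, had 47.4 and 25.7 CPM with PDE2, against 72.6 and 63.9 CPM with TIP41. It passed only with the block (−0.97, adjusted p = 0.112, and 0.00337 with the block). The methionine permease genes MUP3 and MMP1 had −1.26 and −0.87, with adjusted p-values of 0.705 and 0.285.

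Nuclear genes for mitochondria showed few differences. Of 23 mitochondrial carrier genes DIC1 was the single call and OAC1, which carries oxaloacetate, was added by the block. OAC1 had 164.0 and 165.3 CPM with PDE2, against 114.1 and 106.6 CPM with TIP41 (log2 fold change 0.58, adjusted p = 0.129, and 0.0172 with the block). The ADP/ATP carrier gene AAC2 (PET9) had 0.15 and the import receptor gene TOM70 had 0.11, without a call. Protein import genes (30 tested) had 25 positive values (49% of all genes) and a median of 0.09, and none passed. TIM9 at 0.75 and TIM10 at 0.29 both encode chaperones of the intermembrane space.

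Of 17 TCA cycle genes SDH2, the iron-sulfur subunit of succinate dehydrogenase, passed only with the block, with 37.3 and 27.4 CPM with PDE2, against 61.0 and 48.9 CPM with TIP41 (−0.81, adjusted p = 0.297, and 0.0216 with the block). The retrograde targets CIT2, peroxisomal citrate synthase, and IDH1 and IDH2, isocitrate dehydrogenase, had −0.34, −0.17 and −0.13, and none of the 17 retrograde genes passed (median −0.03). Citrate synthase CIT1 had −0.50 and malate dehydrogenase MDH2 0.50. Nuclear subunits of complex III (median −0.13), cytochrome oxidase (−0.04) and ATP synthase (0.03) gave no call in either fit.

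The iron regulon of Aft1p and Aft2p and the drug resistance genes of Pdr1p and Pdr3p, both followed in the study, had no member past the threshold. FIT3, a cell wall mannoprotein that retains siderophore iron, had 799.7 and 704.8 CPM with PDE2, against 1044.8 and 1140.9 CPM with TIP41, far below the 2553.1 and 4387.0 CPM of the ρ0 vector (PDE2 minus TIP41 −0.54, SE 0.21, adjusted p = 0.596). The iron list's median was −0.13. PDR5, the main drug efflux pump, had 5642.3 and 5919.7 CPM with PDE2, against 4106.3 and 4438.3 CPM with TIP41 and 8533.3 and 11257.8 CPM with the vector (0.44, SE 0.17, adjusted p = 0.586). Of 20 drug resistance genes 16 had positive values (49% of all genes) and 8 were wholly higher in the PDE2 libraries (18.1% of all genes), with a median of 0.27, and GRE2 had 0.50 (adjusted p = 0.258). So FIT3 and PDR5 were lower than in the vector with either plasmid, and the smaller difference between the 2 plasmids was not past the threshold.

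Autophagy genes had mostly negative values, with 19 of 24 values negative (51% of all genes), 13 wholly lower in the PDE2 libraries (19.7% of all genes) and a median of −0.21, again without a call in either fit. ATG1, the kinase that starts autophagy, had 20.1 and 27 CPM with PDE2, against 36.9 and 36.9 CPM with TIP41 (−0.61, adjusted p = 0.424), and ATG3 had −0.62. The list of cell wall mannoproteins and wall synthesis had a median of 0.01. In it CHS1 was lower, and CWP2, a wall mannoprotein, was higher only with the block. CWP2 had 2697.4 and 1967.0 CPM with PDE2, against 1589.1 and 1347.7 CPM with TIP41 and 1023.5 and 835.6 CPM with the vector (0.67, adjusted p = 0.271, and 0.0218 with the block).

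The remaining lists gave no call in either fit. Medians were close to that of all genes for glycolysis and fermentation (0.05), hexose transporters and glucose sensing (0.03) and glucose-repressed genes (0.02). The same held for ergosterol synthesis (0.08), hypoxic and heme-related genes (0.00) and proteasome subunits (−0.02). The phosphate regulon had a median of −0.14, with 15 of 20 values negative (51% of all genes). HXT7, a high-affinity hexose transporter that glucose represses, had 10.7 and 4.39 CPM with PDE2, against 2.31 and 2.08 CPM with TIP41 (1.63, SE 0.60, adjusted p = 0.56). In all, 30 of 36 lists had no member past the threshold without the replicate block.

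**Figure D5:**
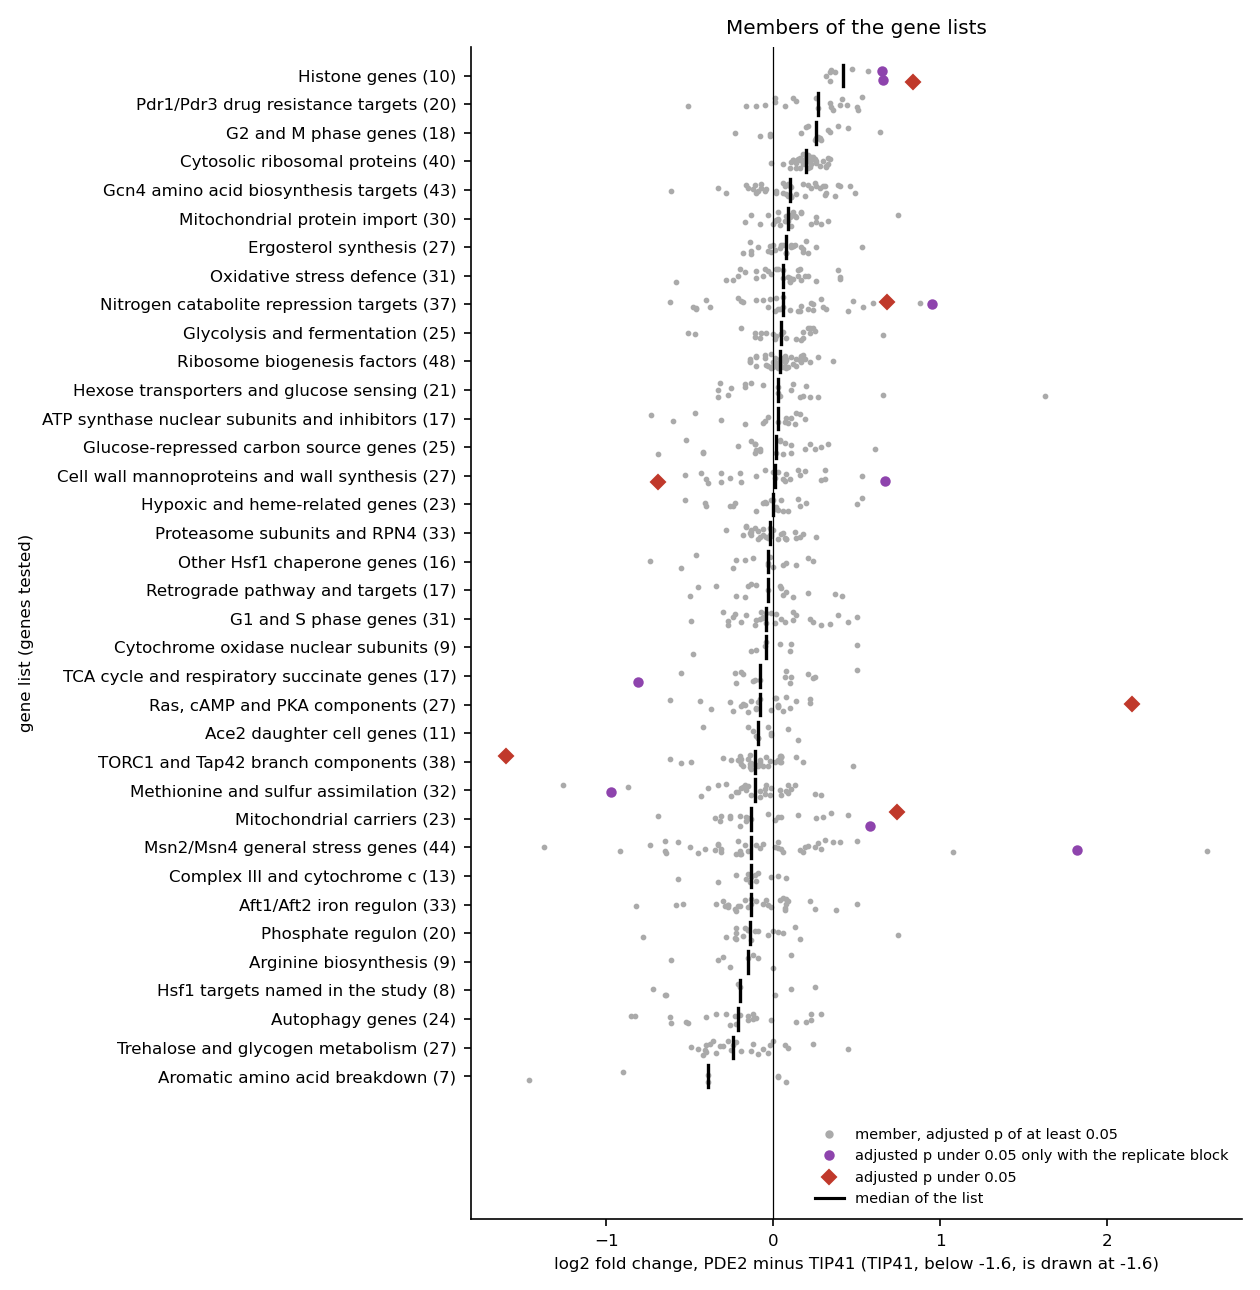
Log2 fold changes of PDE2 minus TIP41 for the members of 36 gene lists, ordered by their medians (black bars), with red diamonds for members past the threshold and purple points for members past it only with the replicate block. Histone genes have the highest median (0.42) and the 7 aromatic amino acid breakdown genes the lowest (−0.39).

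In all, the replicate block added 9 genes that were higher and 22 that were lower. Besides those already described, higher levels were called for ERV14, a cargo receptor of ER-derived vesicles (0.60), SCS7, which hydroxylates sphingolipids (0.58), and YFR009W-A, at the same locus as GCN20, which had only 12 and 16 fragments with PDE2, against 1 and 0 with TIP41. Among the lower ones were ZRT1, the high-affinity zinc transporter (−0.74), SSD1, a protein that binds mRNAs of wall proteins (−0.58), FLC2, a membrane protein linked to FAD transport (−0.78), and YOR385W, of unknown function (−0.86). These genes were chosen for mention after their values were seen.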

How the data were processed

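RNA was sequenced from polyadenylated transcripts as paired ends on a MiSeq, in 8 libraries grouped by their labels. The submitters' processing notes name TopHat2 2.0.14, Cuffdiff 2.2.1.1 and the R64 build. The strand setting used for counting is not given in the sources used here. The estimated counts deposited by the authors are fragments per gene and library before scaling (7105 genes, 12.3% of values above 0 not whole at a tolerance of 0.001, because fragments with several alignments were divided), and 1420 genes share a deposited locus. FPKM values deposited by the authors were used only in alternatives. Columns with the authors' own comparisons (fold changes, p-values and q-values) were not used.

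After rounding to whole numbers, estimated counts entered edgeR 4.0.16 under R 4.3.3 (5832 genes kept by filterByExpr, TMM, robust quasi-likelihood fit of all 8 libraries in 4 groups, 4 residual degrees of freedom), with Benjamini-Hochberg adjustment over all genes and a threshold of 0.05. Each SE was obtained as the absolute log2 fold change over √F. Replicates 0 and 1 were made by different experimenters. Same-numbered libraries' deviations from group means correlated at 0.214 to 0.542 in all 6 pairs of groups (5675 genes), so the numbers were taken to pair the samples. The main fit does not use this pairing, and counts and adjusted p-values given without mention of the block ignore it. Adding the replicate number as a block left 3 residual degrees of freedom. Replicates of a group correlated at 0.972 to 0.978 (log2 CPM). Coordinates are of R64; deposited ends equalled those of RefSeq for 5323 of 5347 matched genes alone at their locus (99.6%).

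Genes named are the plasmid genes and their 3 neighbours on either side, the 12 largest rises and falls among called coding genes (average log2 CPM 3 or more, groups not overlapping, a locus of their own), per list the 4 called members with the smallest p or, with no call, 2 members, the genes the study followed, and the PKA and TORC1 lists. Called genes that share a locus, and genes called only with the block, were named beyond this rule, and values of some list members are not reported here. The comparison, the members and the 36 lists were chosen with earlier results of these data known, and 5 further lists after the values were seen. Alternatives were RLE size factors, DESeq2 1.42.0, other filters, other gene sets, a gene length offset, the replicate block, limma 3.58.1 on log2(FPKM + 1) and log2(FPKM + 0.1), and leaving out each library. The fits were tested on simulated data.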

Additional observations from a re-analysis of the deposited data

How the results depend on the processing

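The counts of 7 genes higher and 16 lower with PDE2 depended on how the spread was estimated. With only the 2 groups compared there were 3 and 9, and limma called 0 and 2 on log2(FPKM + 1) as well as on log2(FPKM + 0.1). The replicate block, which uses the pairing of the replicate numbers, gave 16 and 38, and the block with a gene length offset 13 and 33. Without genes that share a locus 10 were lower. Leaving out 1 library gave 1 to 10 higher and 6 to 26 lower, the highest counts without ρ0 vector replicate 0 and the lowest without TIP41 replicate 0 (higher) and PDE2 replicate 1 (lower). TIP41 and IRC16 passed in all 19 alternatives that gave them a value, and PDE2, MCH5 and SRL3 in 18 of 20, all but limma. All 23 called genes kept their direction in every alternative that gave a value.

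Genes without a call near 0 changed sign in some fits. With limma on log2(FPKM + 0.1) and log2(FPKM + 1), HAP5 had 0.05 and 0.04 and PRE10 0.03 and 0.03, and PRE10 had 0.01 with protein-coding genes only and without genes that share a locus. Leaving out each library in turn, the ranges that crossed 0 among the genes named were SNX3 −0.38 to 0.25, HAP5 −0.10 to 0.05, VTS1 −0.11 to 0.45, PRE10 −0.05 to 0.05, GLN1 −0.31 to 0.57, SIS1 −0.40 to 0.03, SSA1 −0.83 to 0.24, SSA3 −0.01 to 0.25, SSA4 −0.22 to 0.26, PDE1 −0.41 to 0.15, RAS2 −0.30 to 0.10, MSN4 −0.30 to 0.13, SIT4 −0.11 to 0.08, ARG3 −0.19 to 0.17, ARO9 −1.47 to 0.34, PET9 −0.12 to 0.40, CIT2 −0.85 to 0.07, IDH1 −0.44 to 0.06 and IDH2 −0.40 to 0.11. The spread of 2 libraries a group limits every comparison here.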
